A study of Rattus norvegicus with 14 samples.

Results

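The genes described here are 4 genes of the liver macrophage and of antigen presentation on MHC class II: Clec4f, Ctss, RT1-DMb and Cd74. They were picked by the gene symbol of the platform annotation, and all 4 had probe sets, 9 of the 4502 probe sets in the table. Clec4f had 1 probe set, Ctss had 1, RT1-DMb had 3 and Cd74 had 4. The genes were proposed with results of these same arrays in view, so their values are given as a description and no p-value is attached to them.

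MHC class II molecules carry peptides from ingested proteins to the surface of antigen-presenting cells, where CD4+ T cells read them. The invariant chain, encoded by Cd74, accompanies new class II molecules to the endosome, where cathepsin S, encoded by Ctss, trims it to a small remnant. The DM heterodimer, of which RT1-DMb encodes the beta chain, then exchanges that remnant for an antigenic peptide. In the liver the cells that can take these steps include Kupffer cells, the macrophages of the sinusoids. In rodents, Kupffer cells carry the galactose-binding lectin Clec4f on their surface.

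The arrays held RNA from the left lateral liver lobe of rats, and asked how the liver transcripts of Wistar rats and of rats called Kyoto in the labels differ while orotic acid is fed. Orotic acid, a pyrimidine precursor, fills the rat liver with fat when it is added to the diet. The 14 arrays fell into 6 groups. They were 3 Wistar controls, 2 Wistar arrays at day 3 and 3 at day 14 of chow with 1% orotic acid, and 2 Kyoto arrays each at days 1, 3 and 14 of the same chow. Kyoto rats without orotic acid and Wistar rats at day 1 were not analysed here, so the strains are compared only in fed animals, and no Kyoto difference is against an unfed liver. The labels used here give neither age nor sex. The labels do not state in so many words that each array was a separate animal, so the spread between arrays may be partly technical. Below, "fed Wistar" means the 5 Wistar arrays of days 3 and 14, and "fed Kyoto" the 4 Kyoto arrays of the same days.

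Values are log2 signals after quantile normalization across arrays, here called scaled signals, with a floor at 6.85, below which signals were set to that value. The array labelled Wistar control replicate 2 correlated best with Kyoto day 3 replicate 2 (r = 0.96 across features, which are not independent replicates), so the results against the controls for the 4 genes, the class II list and the macrophage list are also given without it. The least like the rest was Kyoto day 1 replicate 1, with a median correlation of 0.895. Hepatocyte genes, 11 of a list of 12, were measured and their summed linear signal ran from 178000 to 189000 in fed Wistar and from 185000 to 199000 in fed Kyoto. The number of arrays limits the precision of every value below.

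Of the 4 genes, 3 differed between the strains in one direction on their brightest probe sets, and that of the invariant chain overlapped. On these probe sets the scaled signals of Clec4f, Ctss and RT1-DMb were higher on all 6 Kyoto arrays than on all 5 fed Wistar arrays. The mean differences of fed Kyoto against fed Wistar were 1.76-fold for Clec4f, 1.79-fold for Ctss and 1.95-fold for RT1-DMb. Cd74 overlapped between the strains on its brightest probe set, with a difference of -0.10 ± 0.24 on the log2 scale (standard error, 4 against 5 arrays). Another Cd74 probe set, X13044_g_at, was lower in fed Kyoto without overlap after scaling, by -0.49 ± 0.18, and the rest overlapped. In bulk liver RNA, fewer cells of a type and less RNA per cell cannot be told apart. Equal binding of the probes to the transcripts of the strains was not tested.

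The sequences just upstream of the genes are shown as a description, because 3 of the 4 genes were higher together in fed Kyoto while Cd74 was not. Only 3 chosen motifs were looked for, and a part of these sequences in the differences was not tested. The sequences are the 250 bases before the annotated gene start in RefSeq, build GRCr8, read 5′ to 3′ on the gene's own strand. Entries matched 3 of the 4 genes, and RT1-DMb is named only. The stretches are chr4:117696408-117696657 on the minus strand for Clec4f, chr2:185775146-185775395 on the plus strand for Ctss and chr18:56526956-56527205 on the plus strand for Cd74. Capitals mark matches, on either strand, to the Y box CCAAT, to the interferon-gamma activated site TTCNNNGAA or to the PU.1 core GAGGAA.
Clec4f: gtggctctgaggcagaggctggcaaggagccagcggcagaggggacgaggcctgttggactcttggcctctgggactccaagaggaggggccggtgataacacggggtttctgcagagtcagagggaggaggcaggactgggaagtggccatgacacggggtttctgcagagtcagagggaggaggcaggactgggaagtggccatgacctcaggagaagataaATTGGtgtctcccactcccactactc
Ctss: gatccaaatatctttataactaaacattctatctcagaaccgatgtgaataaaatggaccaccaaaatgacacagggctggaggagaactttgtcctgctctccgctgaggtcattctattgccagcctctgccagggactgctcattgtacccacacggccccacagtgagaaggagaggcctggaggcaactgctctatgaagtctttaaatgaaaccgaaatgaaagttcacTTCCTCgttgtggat
Cd74: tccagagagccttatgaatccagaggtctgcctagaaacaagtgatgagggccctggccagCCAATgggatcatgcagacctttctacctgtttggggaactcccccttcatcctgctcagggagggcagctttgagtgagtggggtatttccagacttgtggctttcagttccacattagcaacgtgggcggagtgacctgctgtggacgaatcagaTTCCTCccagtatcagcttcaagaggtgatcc
The Cd74 stretch held a Y box at position -189 from the gene start, in the forward direction, and a PU.1 core on the opposite strand at -32. The Ctss stretch held 1 PU.1 core, on the opposite strand at -15, and the Clec4f stretch held 1 Y box, on the opposite strand at -26. Clec4f and Ctss thus had none of the 3 motifs in common, and each had its motif in common with Cd74. No match to the interferon-gamma activated site lay in the 3 stretches, which says only that these letters are not in these windows. Over 33469 rat promoters cut to the same 250 bases, 34% held a Y box, 23.3% a PU.1 core and 7.67% the interferon-gamma activated site. The marked matches do not overlap each other. The Clec4f stretch also held an exact repeat of 56 bases, whose copies begin at -151 and -97, so that the end of the first overlaps the start of the second. The longest exact repeat was 8 bases in the Ctss stretch and 7 in the Cd74 stretch. A match is a description of the letters and not a measured binding site.

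Clec4f, probe set M55532_at, encodes the lectin that marks Kupffer cells in rodents. Its scaled signals were 9.72, 10.67 and 10.23 in Wistar controls 1 to 3. They were 9.55 and 9.56 on the Wistar day 3 arrays, and 9.54, 9.44 and 9.85 at day 14. The Kyoto arrays gave 10.28 and 9.93 at day 1, 10.46 and 10.54 at day 3, and 10.16 and 10.42 at day 14. Every Kyoto array lay above every fed Wistar array, while the controls spanned both strains, and control replicate 2 was the highest of all 14 arrays. The difference between fed Kyoto and fed Wistar was 0.82 ± 0.20 (log2, standard error), and leaving out any 1 array kept it between 0.75 and 0.88. The deposited signals, before scaling, were apart in the same way, 1160 to 1497 in fed Kyoto against 688.6 to 923.9 in fed Wistar.

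Ctss, probe set L03201_at, encodes the endosomal cysteine protease that cuts the invariant chain. Its scaled signals were 10.54, 10.94 and 10.39 in the controls, 10.23 and 10.24 after 3 days in fed Wistar, and 9.99, 10.15 and 9.86 after 14. The Kyoto arrays gave 10.75 and 10.90 at day 1, 11.16 and 11.03 at day 3, and 10.78 and 10.86 at day 14. All 3 controls lay above all 5 fed Wistar arrays and control replicate 2 lay within the Kyoto range, while controls 1 and 3 lay between the fed Wistar and Kyoto arrays. Ctss had the smallest spread within groups of the 4 genes, with a pooled SD of 0.17 against 0.28 for Clec4f, 0.34 for RT1-DMb and 0.39 for Cd74. The difference between fed Kyoto and fed Wistar was 0.84 ± 0.17 (log2, standard error), from 0.81 to 0.88 when any 1 array was left out. The deposited signals were 1804 to 2520 in fed Kyoto and 929.3 to 1170 in fed Wistar, again with no overlap.

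RT1-DMb encodes the beta chain of the DM peptide exchanger. Its brightest probe set, rc_AI171966_at, represents the gene and gave scaled signals of 8.97, 9.01 and 8.64 in the controls, 8.24 and 7.96 on the Wistar day 3 arrays, and 8.83, 8.10 and 8.74 at day 14. The Kyoto arrays gave 9.59 and 8.98 at day 1, 9.74 and 9.01 at day 3, and 9.35 and 9.08 at day 14. The Kyoto arrays were again all above the fed Wistar arrays, but the gap was narrow, 8.98 against 8.83, and the controls overlapped both. The difference between fed Kyoto and fed Wistar was 0.97 ± 0.23 (log2, standard error). It was the least stable of the 3, from 0.78 without Kyoto day 3 replicate 1 to 1.15 without Kyoto day 3 replicate 2.

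The other RT1-DMb probe sets were dim. U31599_at was at the floor on 12 of 14 arrays, so it gave no level to compare. U31599_g_at gave 6.85, 8.04 and 6.85 in the controls, 6.85 and 6.94 on the Wistar day 3 arrays, and 7.25, 6.85 and 7.07 at day 14. It gave 7.14 and 7.05 in Kyoto at day 1, 8.05 and 7.92 at day 3, and 8.42 and 8.10 at day 14. Fed Kyoto stood above fed Wistar here too, by at least 2.22-fold since 2 fed Wistar arrays were at the floor, but Kyoto day 1 lay among the fed Wistar arrays. The 2 probe sets gave different Kyoto time courses, and that difference was not tested. From day 1 to day 14 the U31599_g_at difference was 1.16 ± 0.35 (log2, standard error) and that of rc_AI171966_at was -0.07 ± 0.33. Their correlation over the 14 arrays was 0.628, as a description.

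Cd74, the invariant chain, is represented by X13044_at. Its scaled signals were 10.37, 9.65 and 10.54 in the controls, 10.09 and 10.34 on the Wistar day 3 arrays, and 10.55, 9.69 and 10.30 at day 14. The Kyoto arrays gave 10.17 and 9.68 at day 1, 10.11 and 10.26 at day 3, and 10.33 and 9.72 at day 14. The group ranges overlapped, with low arrays between 9.65 and 9.72 in 4 of the 6 groups, so the order of the group means carries no information beyond the spread. Control replicate 2, the highest array for Clec4f, was the lowest for Cd74. Leaving out 1 array moved the strain difference between -0.25 and 0.06.

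The other Cd74 probe sets gave lower signals in fed Kyoto, to different degrees. X13044_g_at gave 9.23, 8.89 and 9.62 in the controls, 9.17 and 9.36 on the Wistar day 3 arrays, and 9.42, 8.97 and 9.68 at day 14. It gave 8.89 and 8.91 in Kyoto at day 1, 8.82 and 8.80 at day 3, and 8.96 and 8.69 at day 14. Fed Kyoto lay just below fed Wistar after scaling, 8.69 to 8.96 against 8.97 to 9.68, a difference of -0.49 ± 0.18 (log2, standard error). On the deposited signals the same probe set overlapped, 413.8 to 507.3 against 497.3 to 811. X14254cds_at and X14254cds_g_at overlapped between the strains, with differences of -0.39 ± 0.26 and -0.26 ± 0.31. The correlations among the 4 Cd74 probe sets ran from 0.667 to 0.838 over the 14 arrays. Thus none of the 4 gave a higher mean in fed Kyoto, against the direction of the other 3 genes.

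**Figure D1:**
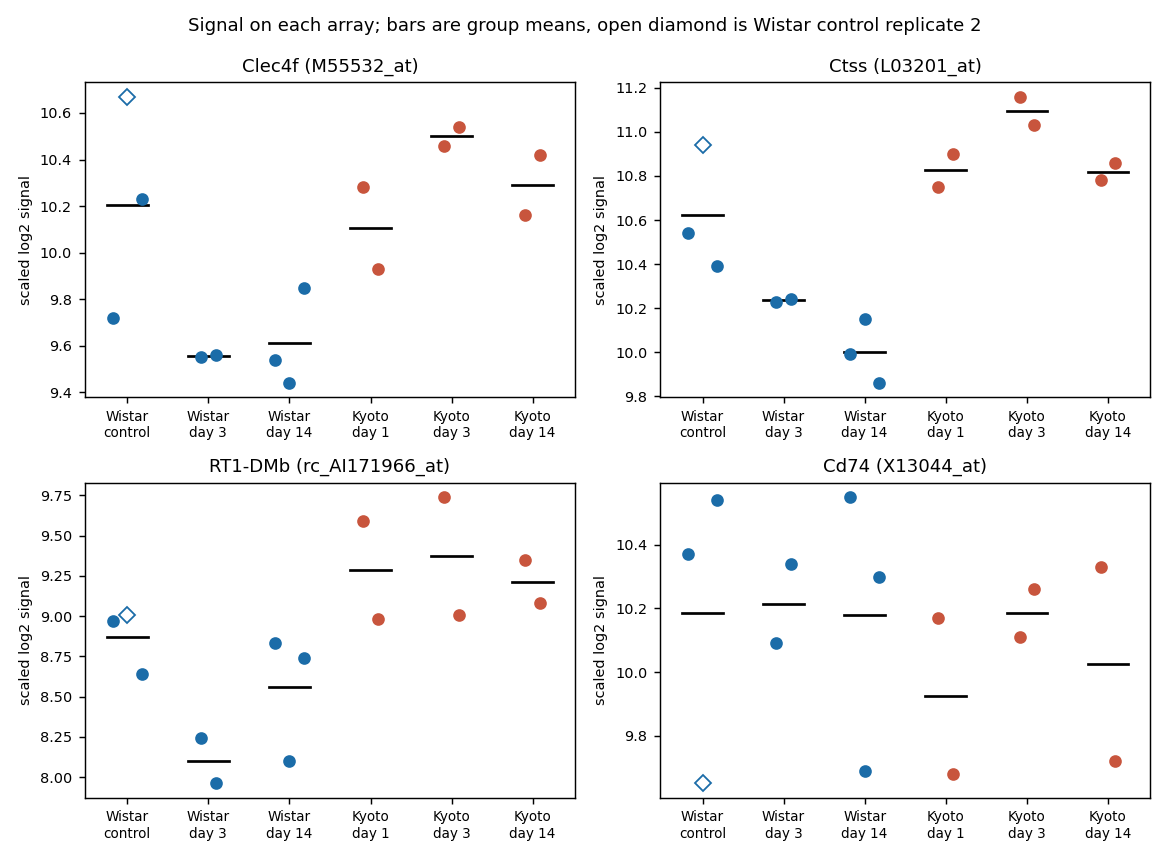
Scaled log2 signal (vertical axis) of the representative probe set of Clec4f, Ctss, RT1-DMb and Cd74 on each of the 14 arrays, by group; points are arrays, bars are group means and the open diamond is Wistar control replicate 2. The Kyoto arrays of Clec4f, Ctss and RT1-DMb lie above all fed Wistar arrays, and those of Cd74 lie among them.

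**Figure D2:**
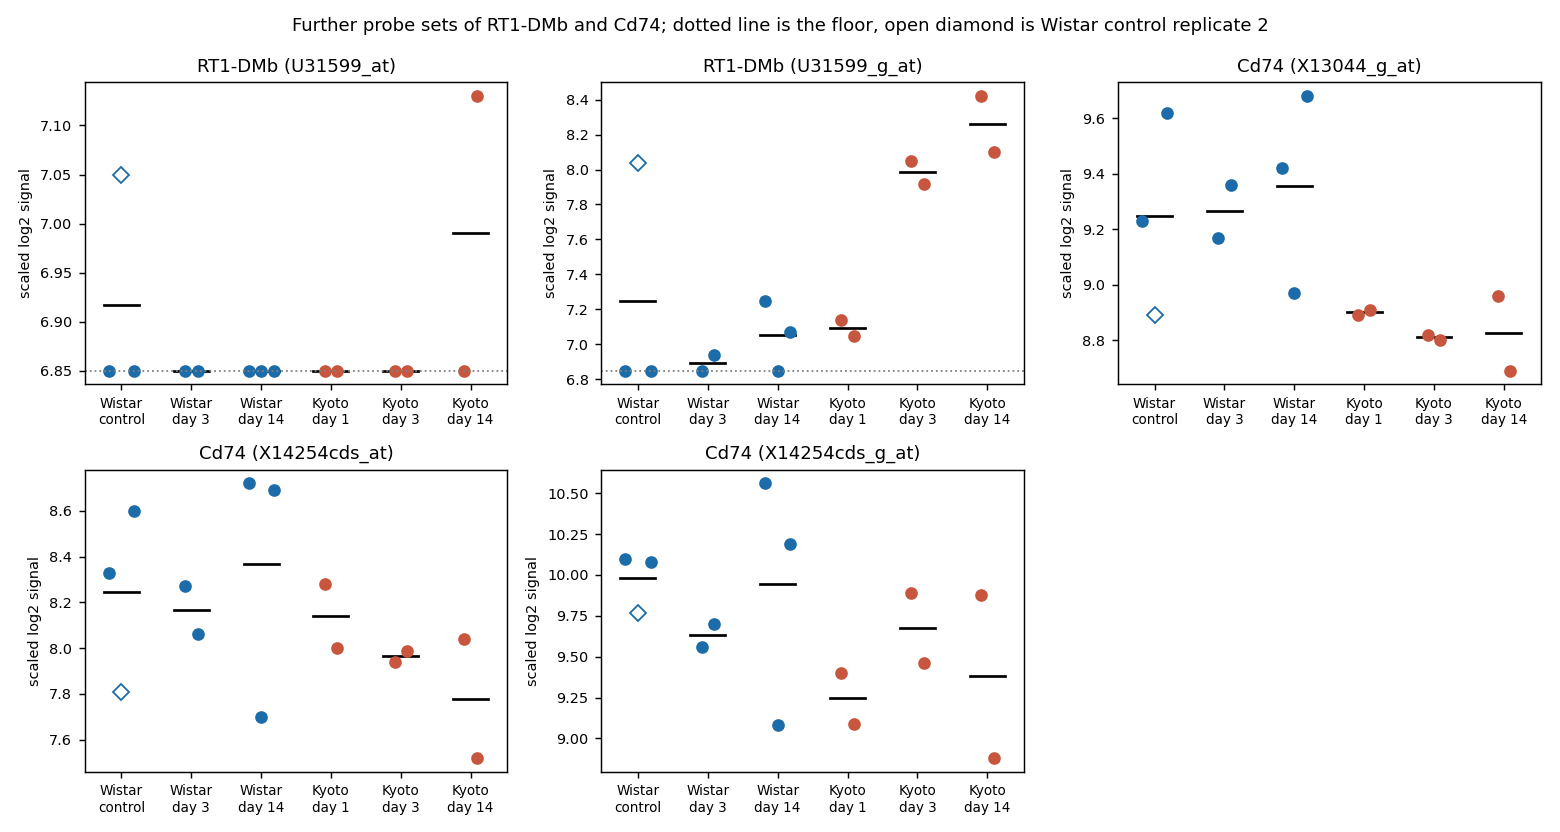
Scaled log2 signal (vertical axis) of the further probe sets of RT1-DMb and Cd74 on each array, by group; points are arrays, bars are group means, the open diamond is Wistar control replicate 2 and the dotted line is the floor of 6.85. U31599_at is at the floor on 12 of 14 arrays, and U31599_g_at is high only on the fed Kyoto arrays of days 3 and 14 and on Wistar control replicate 2.

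The counts read as follows against all features tested. On the representative probe sets, 3 of the 4 genes had no overlap and higher signals in fed Kyoto than in fed Wistar, against 5.08% of the 1909 features tested, with 3.77% in the opposite direction. The same 3 genes had no overlap when Kyoto day 1 was added to the Kyoto arrays, against 3.04% of features (2.46% lower), and when Kyoto day 1 alone was set against fed Wistar, against 9.74% (7.49% lower). Over all 9 probe sets, 4 were higher in fed Kyoto without overlap and 1 was lower, against 3.14% and 2.6% of the 4110 probe sets scaled. Since results of this contrast chose the genes, the shares are printed beside the counts and nothing is read from them. Among the 1909 differences ordered from the highest, RT1-DMb stood at 42, Ctss at 51, Clec4f at 54 and Cd74 at 1268.

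The order of the group means was Kyoto day 3 first for Clec4f, Ctss and RT1-DMb, and a fed Wistar group last. For Clec4f, neighbours in that order whose arrays overlapped were Kyoto day 14, Wistar control and Kyoto day 1, with means of 10.29, 10.21 and 10.1. Kyoto day 3, at 10.5, stood above the other Kyoto groups and below control replicate 2. Wistar at day 14 and day 3 also overlapped, with means of 9.61 and 9.55. For Ctss, Kyoto day 1, Kyoto day 14 and Wistar control overlapped, at 10.83, 10.82 and 10.62. Kyoto day 3 stood above them at 11.10, and Wistar day 3, at 10.23, and Wistar day 14, at 9.86 to 10.15, stood below, each with no overlap with its neighbour. For RT1-DMb, the 3 Kyoto groups overlapped at 9.38, 9.28 and 9.21, and Wistar day 14, at 8.56, overlapped both the controls, at 8.87, and Wistar day 3, at 8.10, which did not overlap each other.

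Among Wistar rats, the fed arrays gave lower mean signals than the controls for the representative probe sets of the same 3 genes. At day 3 the differences from control were -0.65 ± 0.27 for Clec4f, -0.39 ± 0.22 for Ctss and -0.77 ± 0.30 for RT1-DMb (log2, standard error, 2 against 3 arrays). At day 14 they were -0.60 ± 0.25, -0.62 ± 0.20 and -0.31 ± 0.27 in the same order (3 against 3 arrays). Those of Cd74 were 0.03 ± 0.33 at day 3 and 0 ± 0.29 at day 14. Only Ctss had no overlap between the fed Wistar arrays and the controls, 1 of 4 genes, where 3.93% of all features were lower and 1.83% higher without overlap. On the dim RT1-DMb probe set U31599_g_at, controls 1 and 3 were at the floor of 6.85. The lower fed Wistar mean there came from control replicate 2 alone, at 8.04.

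The differences of Clec4f and Ctss were smaller without control replicate 2. Without it the day 3 differences were -0.42 for Clec4f, -0.22 for Ctss, -0.7 for RT1-DMb and -0.23 for Cd74. The day 14 differences without it were -0.37 for Clec4f, -0.46 for Ctss, -0.25 for RT1-DMb and -0.27 for Cd74. Ctss still had no overlap without that control, where 6.39% of all features were lower in this way and 2.93% higher, and Clec4f still overlapped, 9.72 and 10.23 in the other controls against a highest fed Wistar array of 9.85. The RT1-DMb difference at day 14 rested on Wistar day 14 replicate 2, and was -0.09 without it. In the fit over all features, 0 of 1909 (0%) passed the limma threshold in either Wistar comparison, with 200 at an unadjusted p under 0.05 at day 3 and 99 at day 14.

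In Kyoto rats the day 1 arrays lay above the fed Wistar arrays, which are of days 3 and 14, for the representative probe sets of the 3 genes. They were not apart from the Wistar controls. Both Kyoto day 1 arrays lay within the control range for Clec4f, 9.72 to 10.67, and for Ctss, 10.39 to 10.94. For RT1-DMb, 1 of the 2 lay within the control range of 8.64 to 9.01. The differences of day 3 against day 1 were 0.40 ± 0.30 for Clec4f, 0.27 ± 0.24 for Ctss, 0.09 ± 0.33 for RT1-DMb and 0.26 ± 0.36 for Cd74 (log2, standard error, 2 against 2 arrays). Those of day 14 against day 1 were 0.19 ± 0.30, 0 ± 0.24, -0.07 ± 0.33 and 0.09 ± 0.36 in the same order. All were smaller than their standard errors except those of Clec4f and Ctss at day 3, which were slightly larger. The RT1-DMb difference at day 3 turned with single arrays, -0.27 without Kyoto day 3 replicate 1 and 0.46 without replicate 2. Of all features, limma called 0 of 1909 (0%) at day 3 and 1 (0.0524%) at day 14, with 111 and 192 at an unadjusted p under 0.05. These comparisons share the day 1 arrays, as the Wistar comparisons share the controls.

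The change from day 3 to day 14 differed between the strains by -0.26 ± 0.41 for Clec4f, -0.04 ± 0.33 for Ctss, -0.62 ± 0.45 for RT1-DMb and -0.12 ± 0.49 for Cd74 (log2, Kyoto minus Wistar, standard error). In this strain by time comparison limma called 0 of 1909 features (0%), with 98 at an unadjusted p under 0.05. Lot batch 1 is named for 11 arrays, and 3 Wistar arrays carry no lot. With the lot as a block, the strain differences were 0.88 for Clec4f, 0.76 for Ctss, 0.92 for RT1-DMb and 0.04 for Cd74.

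**Figure D3:**
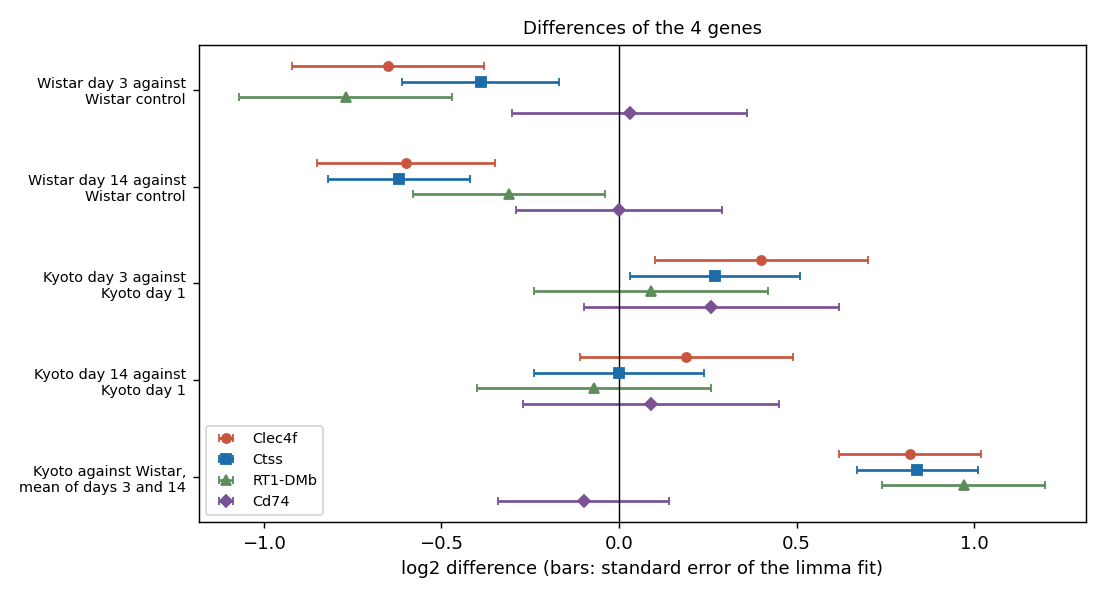
Log2 difference (horizontal axis) of each gene in 5 comparisons, with bars for the standard error of the limma fit. Clec4f, Ctss and RT1-DMb lie below 0 in both Wistar comparisons with the controls and near 0.82 to 0.97 in the strain comparison, and Cd74 lies near 0 in the strain comparison.

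The rest of the class II pathway was described from a list of 19 genes, 16 without the genes above, of which 10 were tested. In fed Kyoto against fed Wistar, 7 of the 10 differences were above 0 and 3 below, from -0.23 to 0.71, with a median of 0.11 against 0.03 over all features. None passed the limma threshold, where limma called 62 of 1909 features (3.25%), 24 higher (1.26%) and 38 lower (1.99%). At an unadjusted p under 0.05 there were 2 of the 10, beside 274 of the 1909 features. The 2 were Ctsh and RT1-DMa.

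Of the endosomal proteases other than Ctss, 4 were tested, and Ctsh had the largest difference. Ctsh, the aminopeptidase cathepsin H, gave 11.02 to 11.42 in fed Kyoto and 10.4 to 10.72 in fed Wistar, with no overlap, and 11.25 in control replicate 2. Its difference was 0.71 ± 0.19, 1.64-fold, with a limma adjusted p of 0.0553. The cathepsins B, D and L gave -0.09 ± 0.22 for Ctsb, 0.09 ± 0.19 for Ctsd and 0.06 ± 0.15 for Ctsl, each overlapping between the strains. RT1-DMa, the alpha chain of the DM heterodimer, gave 8.44 to 8.92 against 7.6 to 8.49, a difference of 0.55 ± 0.19 with a limma adjusted p of 0.156. RT1-DOa, a chain of the DO modulator of DM, gave -0.13 ± 0.20, with an adjusted p of 0.805. Both chains of DM were thus higher in the mean of fed Kyoto, and neither DMa nor DOa passed the threshold.

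The class II chains themselves, which form the molecule that DM loads and are named here as a whole role, showed differences of both signs. The differences were 0.29 ± 0.28 for RT1-Ba, 0.12 ± 0.21 for RT1-Bb, -0.23 ± 0.26 for RT1-Da and 0.42 ± 0.41 for RT1-Db1. Their limma adjusted p-values were 0.696, 0.842, 0.752 and 0.7. These differences were smaller than their standard errors or barely larger. The summed linear signal of the 10 genes measured ran from 11700 to 12600 in fed Wistar and from 12400 to 14300 in fed Kyoto, and the ranges overlapped. In the Wistar comparisons the median of the list was -0.1 at day 3 and 0 at day 14, beside -0.04 and -0.02 over all features. Without control replicate 2 it was -0.09 on both days, beside -0.05 and -0.03.

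Genes of Kupffer cells and macrophages other than Clec4f came from a list of 39, of which 12 were measured and 11 tested. Aif1 was measured but lay outside the upper 60% of features by mean and was not tested. All 11 differences of fed Kyoto against fed Wistar were above 0, from 0.12 to 1.46, with a median of 0.44 against 0.03 over all features. Cyba and Lgals3 rose past the limma threshold, 2 of 11, where 1.26% of all features were called higher, and none fell. At an unadjusted p under 0.05 there were 5 of 11, beside 274 of the 1909 features. The summed linear signal of the 12 was 5620 to 7710 in fed Wistar, 7000 to 9970 in fed Kyoto, 8590 to 8990 in Kyoto at day 1 and 6210, 8780 and 6770 in controls 1 to 3, so the strains overlapped in this sum. Among the defining genes, Cd163, Marco, Vsig4, Cd5l, Timd4, Cd68, Adgre1 and Csf1r were not analysed here.

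Cyba, the light chain of the phagocyte NADPH oxidase cytochrome, gave 8.32, 9.62 and 8.51 in the controls, 7.48 and 7.08 on the Wistar day 3 arrays, and 8.30, 8.16 and 8.57 at day 14. It gave 8.98 and 8.55 in Kyoto at day 1, 9.43 and 9.70 at day 3, and 8.86 and 9.08 at day 14. Its lowest arrays were those of Wistar day 3 and its highest those of Kyoto day 3 and control replicate 2. Its difference between fed Kyoto and fed Wistar was 1.46 ± 0.25, 2.74-fold, with a limma adjusted p of 0.0085. The call was lost without Wistar day 3 replicate 2, where the difference was 1.36.

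Lgals3, galectin 3, a lectin secreted by activated macrophages, gave 7.97, 8.52 and 8.16 in the controls, 7.56 and 7.89 on the Wistar day 3 arrays, and 7.92, 7.52 and 7.54 at day 14. It gave 8.74 and 8.24 in Kyoto at day 1, 8.74 and 8.71 at day 3, and 8.39 and 8.23 at day 14. Fed Kyoto and fed Wistar had no overlap, and control replicate 2 lay in the Kyoto range. The difference was 0.82 ± 0.19, 1.77-fold, with a limma adjusted p of 0.0324. The call was lost in 8 of 14 fits that left out 1 array, each of a fed array other than Wistar day 14 replicate 1, with differences from 0.74 to 0.91.

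The other tested macrophage genes were above 0 without passing the threshold. C1qb, a subunit of complement C1q that macrophages make, differed by 0.59 ± 0.18, and its relative C1qc by 0.39 ± 0.22. Lyz2, lysozyme, differed by 0.57 ± 0.23, Hmox1, the heme oxygenase of iron recycling, by 0.52 ± 0.22, and Slc40a1, the iron exporter ferroportin, by 0.44 ± 0.21. Their limma adjusted p-values were 0.0913, 0.488, 0.263, 0.277 and 0.374 in the order named. The rest of the tested genes, Cd14, Fcgr2b, Id3 and Ptpn6, also lay above 0 without passing, and the lowest difference, 0.12, was among theirs. All of these macrophage genes, Irf1, the other cathepsins and the endothelial genes below were named after their values were seen.

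In the Wistar comparisons with the controls, 8 of the 11 macrophage genes lay below 0 at day 3, with a median of -0.24 against -0.04 over all features. At day 14, 10 of 11 lay below 0, with a median of -0.19 against -0.02. None passed the limma threshold, with 3 and 2 at an unadjusted p under 0.05. The smallest p at day 3 was that of Cyba, with a difference of -1.54 ± 0.34 and a limma adjusted p of 0.0981. The smallest at day 14 was that of Lgals3, with -0.56 ± 0.23 and an adjusted p of 0.893. These results depended on control replicate 2. Without it, 7 of 11 lay below 0 at day 3, with a median of -0.13 against -0.05 over all features, and 5 of 11 at day 14, with a median of 0.04 against -0.03. Cyba at day 3 was then -1.13 ± 0.27 with a limma adjusted p of 0.182, and Lgals3 at day 14 was -0.41 ± 0.25 with an adjusted p of 0.999. Limma again called none of the 11 on either day, with 1 and 0 at an unadjusted p under 0.05, beside 148 and 50 of all features.

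**Figure D4:**
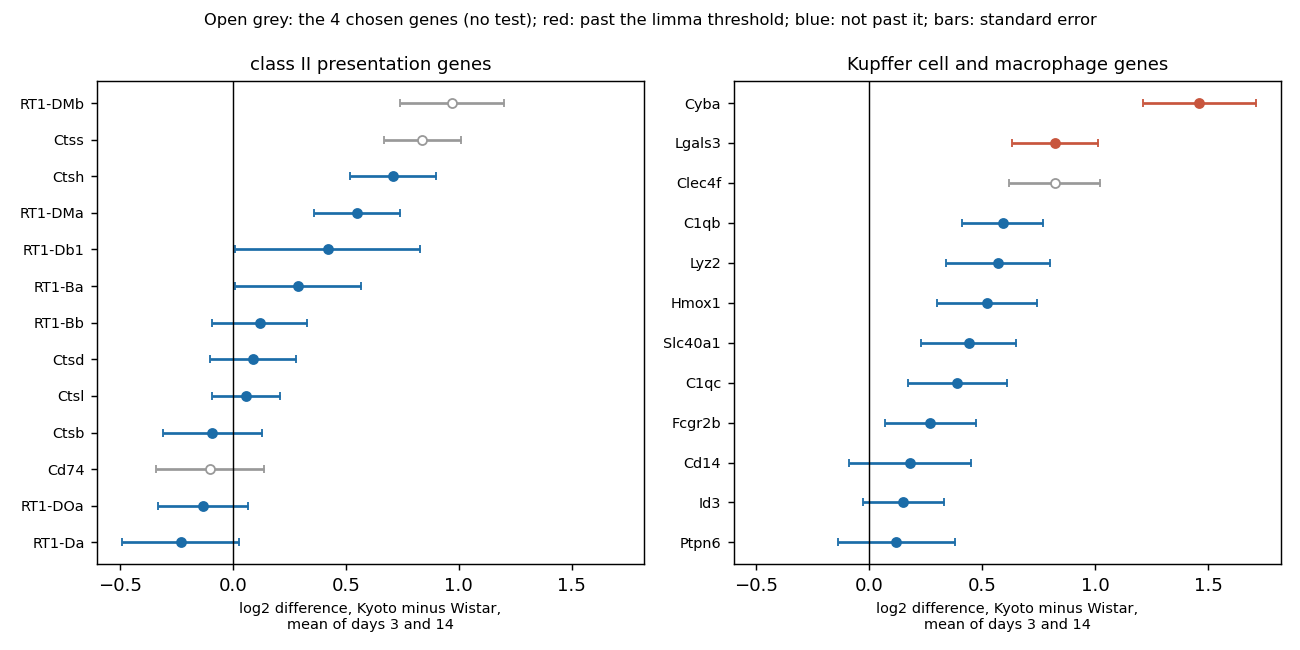
Log2 difference of fed Kyoto against fed Wistar (horizontal axis) for the class II genes (left) and the Kupffer cell and macrophage genes (right), with bars for the standard error; red points passed the limma threshold, blue points did not and open grey points are the 4 chosen genes, which have no test. All tested macrophage genes lie above 0, and the class II genes lie on both sides of it.

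Interferon and class I genes were given because interferon-gamma induces the class II pathway together with them. Of a list of 24 interferon genes, 5 were tested, with 4 differences above 0 and 1 below, and a median of 0.54. The 2 that rose past the limma threshold stand beside 1.26% of all features called higher. Irf1, an interferon-induced transcription factor, was the 1 below 0, with 7.69 to 8.39 in fed Kyoto against 8.18 to 9.01 in fed Wistar, a difference of -0.52 ± 0.20 and a limma adjusted p of 0.214. Irf7, an interferon regulatory factor, was higher in fed Kyoto by at least 2.55-fold with an adjusted p of 0.0361. Mx2, an interferon-induced GTPase, was higher by at least 2.87-fold with an adjusted p of 0.0349. Wistar controls 1 to 3 gave 8.29, 8.82 and 6.85 for Irf7 and 7.83, 8.92 and 6.85 for Mx2. Control replicate 2 thus lay in or above the fed Kyoto ranges, 8.17 to 8.57 for Irf7 and 8.36 to 9.23 for Mx2. Control replicate 1 also lay in the fed Kyoto range of Irf7. For both, 2 fed Wistar arrays were at the floor, and both lost the call in 8 of 14 fits without 1 array, the same 8 arrays as for Lgals3, with differences from 1.25 to 1.45 for Irf7 and 1.37 to 1.68 for Mx2. Against the Wistar controls, replicate 2 included, all 5 interferon genes tested lay below 0 on both days, and none passed. The medians were -0.71 at day 3 and -0.15 at day 14, beside -0.04 and -0.02 over all features. At day 14 the signs of Mx2 and of Stat2, named after its values were seen, rested on control replicate 2. The other Mx2 controls, 7.83 and 6.85, stood against 8.12, 6.85 and 7.38 on the Wistar day 14 arrays. The other Stat2 controls, 8.54 and 8.18, stood against 8.64, 8.55 and 8.22. The remaining interferon genes tested still had lower means at day 14 without that control. Of the class I list, 12 of 24 genes were tested and none passed in fed Kyoto against fed Wistar. There, 3 had an unadjusted p under 0.05 and 9 lay above 0, with a median of 0.24. The 2 immunoproteasome subunits Psmb8 and Psmb9 differed by 0.89 ± 0.27 and 0.74 ± 0.24, with limma adjusted p-values of 0.0913 and 0.117.

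Of the summed markers of the other liver cells below, only those of endothelium had no overlap between the strains. Sinusoidal endothelial genes, 4 of 12 measured with Nos3 at the floor everywhere, summed to 525 to 572 in fed Wistar and 681 to 797 in fed Kyoto. The Wistar controls, at 527 to 733, overlapped both. The tested ones were Kdr, at 0.64 ± 0.20 (limma adjusted p 0.108), and Lyve1, at 0.56 ± 0.23 (0.266). Neither passed the threshold, and Lyve1 overlapped between the strains. Other leukocyte genes, 5 of 37 measured with Cd86 at the floor everywhere, summed to 656 to 723 in fed Wistar and 649 to 785 in fed Kyoto. Stellate cell genes, 10 of 14, overlapped, with 7070 to 11100 against 7460 to 9910. Cholangiocyte genes, 2 of 7 with Epcam at the floor everywhere, summed to 230 on every fed array. That is the floor signal of 115 for each of the 2, so neither gave a level there. Macrophage cytokine genes, 4 of 18 with Il1b at the floor everywhere, summed to 460 in fed Wistar and 460 to 565 in fed Kyoto. The 460 is likewise the floor signal for each of the 4. The part of any of these cells in the differences of Clec4f, Ctss and RT1-DMb was not tested.

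The tested genes whose signals followed each gene most closely over the 14 arrays were found by Pearson correlation, as a description. These correlations share the strain difference and control replicate 2. The closest to Clec4f were Cyba (0.883), Tmsb4x (0.863), Lgals3 (0.85), Cela1 (0.839) and Polr3k (0.837). The closest to Ctss were Akr1c13 (0.908), Arl1 (0.887), Cela1 (0.884), Lgals3 (0.88) and Ndufb8 (0.865). Lgals3 and Cela1 were on both lists. The closest to RT1-DMb were Aprt (0.864), Hspb1 (0.861), Apoc4 (0.854), C19h19orf53 (0.84) and Irf7 (0.835). Cd74 had no neighbour as close, and its first were Ddah1 (0.763), Slc27a2 (0.723), Rab34 (0.716), Vdac1 (0.712) and Sord (0.708), none of them on the lists of the other 3 genes.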

How the data were processed

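The values deposited by the authors are linear intensity signals of 1-colour Affymetrix probe sets. The submitters' processing notes name MAS5, with version and scaling target not given in the sources read here. Groups were taken from the source labels. The 24 control probe sets and the 375 probe sets blank on at least 1 of 3 arrays were left out. The remaining log2 signals of 4110 probe sets were quantile normalized in limma 3.58.1 (R 4.3.3) and floored at the 25th percentile, a signal of 115 (6.85 on the log2 scale). The probe set with the highest mean represented a gene, giving 3181 features. The upper 60% by mean, 1909, entered a single linear model of the 6 groups, which left 8 residual degrees of freedom (lmFit, eBayes with an intensity trend), at a Benjamini-Hochberg adjusted p of 0.05. The fit was first tested on simulated data.

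Folds are 2 raised to the log2 difference, and "fed Kyoto against fed Wistar" averages the differences at days 3 and 14. On 11 arrays the deposited medians were equal, 233.2, so the signals had been scaled before deposit. Of the probe sets, 3700 had 1 platform symbol, 229 several and 573 none. The 4 genes, the 10 gene lists and the motifs were chosen with earlier results of these data known. Named from each list were up to 4 tested genes that passed or, failing that, the 2 of smallest p, and from the likeness search the 5 closest; names beyond that are said to be so. Scaling, floor, filter and probe set rule were varied in turn, with blocks for the lot batch and for the arrays with blank rows, fewer groups in the fit, and leaving out each array.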

Additional observations from a re-analysis of the deposited data

Results flagged for a closer look

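Among the 4 genes and the list genes given by name above, 4 list genes were flagged by the order of their arrays. All Kyoto arrays of day 14 lay on one side of those of day 3, and all Wistar arrays lay on the other side. The arrays are not paired. The share of all features with this pattern was not counted, so nothing is read from the number of genes flagged. For Cyba, Kyoto went from 9.43 and 9.70 down to 8.86 and 9.08, and Wistar from 7.48 and 7.08 up to 8.30, 8.16 and 8.57, so that the changes differed by -1.66 (log2, Kyoto minus Wistar). For Psmb9, Kyoto went from 9.37 and 9.30 to 9.11 and 9.17, and Wistar from 8.20 and 7.93 to 9.14, 8.94 and 8.69, a difference of -1.05. For the endothelial Lyve1, Kyoto went from 8 and 8.42 to 7.70 and 7.46, and Wistar from 7.21 and 7.25 to 7.39, 7.47 and 7.49, a difference of -0.86. For Ctsl the pattern was the opposite, with Kyoto from 11.56 and 11.51 to 11.92 and 11.82 and Wistar from 11.79 and 11.78 to 11.45, 11.71 and 11.35, a difference of 0.62. In the strain by time comparison limma called 0 of 1909 features at an adjusted p of 0.05, with 98 at an unadjusted p under 0.05, so none of the 4 differences passed that test.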

How the results depend on the processing

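No paired analysis was possible because the labels give no replicate numbers that groups share; the numbers used here follow accession order. No called gene changed sign, and the strain differences of Clec4f, Ctss and RT1-DMb stayed above 0 under all 8 other settings and in all 14 fits without 1 array. Features called in fed Kyoto against fed Wistar, 62 in all, were 39 with no filter on low signals, 39 with the upper 40% by mean, 21 with the lot batch as a block and 103 with only the compared groups in the fit; without 1 array they were 11 to 88. The 2 macrophage genes called became 1 with no filter and 1 with the lot batch block, and 0 to 2 without 1 array (0 without Wistar day 3 replicate 2). With the upper 40% the count was 0, because neither Cyba nor Lgals3 was then among the features tested. The 0 class II genes called became 2 with the mean of a gene's probe sets and 1 with only the compared groups, and 0 to 1 without 1 array. Called features were 5 in Wistar day 3 against control with the mean of probe sets and 5 with only the compared groups (0 to 6 without 1 array), and 0 to 7 without 1 array in Wistar day 14 against control. In Kyoto day 3 against day 1 they were 2 with no filter and 0 to 75 without 1 array. In Kyoto day 14 against day 1 they were 3 with no filter, 2 with the mean of probe sets, 0 with only the compared groups and 0 to 161 without 1 array; the 75 and 161 came without Kyoto day 1 replicate 2. With the mean of its probe sets RT1-DMb gave -0.4 in Wistar day 3 against control, 0.41 in Kyoto day 14 against day 1 and -0.12 in strain by time. Without 1 array it gave -0.27 to 0.46 in Kyoto day 3 against day 1 and -0.99 to -0.25 in strain by time. Ctss gave -0.58 in Wistar day 3 against control on the signals as the authors scaled them. Lgals3, Mx2 and Irf7 lost their calls with no filter and with the lot batch block. The causes were not tested. The floor limits what can be said of U31599_at, U31599_g_at, Irf7 and Mx2. It also limits the sums of the endothelial, other leukocyte, cholangiocyte and macrophage cytokine genes, which count signals at the floor.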
